A study of Mus musculus with 4 samples.

Results

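The FOS and JUN family genes Fos, Fosb, Fosl2, Jun, Junb and Jund, with Atf3, were followed through 4 RNA-seq libraries of mouse brain cells. They were chosen by gene symbol, and all 7 are among the 24421 genes of the deposited tables. Of the 4 libraries, 2 are labelled excitatory (αCaMKII-positive cells; this kinase marks forebrain glutamatergic neurons) and 2 are labelled inhibitory (vGAT-positive cells; this vesicular GABA transporter marks GABAergic neurons). The labels name αCaMKII-Cre and vGAT-IRES-Cre mouse lines kept by crossing to wild-type C57Bl/6J mice, and males of 3 to 5 months of age. Each library was made from 100 fluorescent cells picked by hand, so a library is a small pool. The labels name no Noonan syndrome allele, treatment or stimulus for any of these libraries, and they do not say whether libraries of 1 label came from separate animals. The p-values therefore rest on spread between libraries that may be only technical.

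AP-1 is a transcription factor made of pairs of basic leucine zipper proteins. JUN proteins can pair with each other or with FOS proteins, whereas FOS proteins need a JUN or ATF partner to bind DNA, so the mix of family members sets which pairs can form. In neurons, calcium entry and ERK signalling switch on Fos, Fosb and Junb within minutes of activity, through SRF with its ELK partners and through CREB at the Fos promoter. The same genes are also early response genes of glia and of cells under stress. Jund is known for steadier expression.

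The windows before the start sites are shown for Fos, Fosb, Junb and Jun, the 4 members that were lower in the excitatory libraries with values above 0 in both labels. Each window holds the 200 bases before the start of the gene in RefSeq on GRCm38.p6, the build also called mm10. The Fos window lies at chr12:85473690-85473889 on the plus strand and the Fosb window at chr7:19310046-19310245 on the minus strand. The Junb window lies at chr8:84978749-84978948 and the Jun window at chr4:95052223-95052422, both on the minus strand. Capitals mark the motifs found: TGACG, the core of sites bound by CREB and ATF proteins, TGACNTCA, the variant AP-1 site known from the Jun promoter, and the TATA box motif TATAAA.
Fos: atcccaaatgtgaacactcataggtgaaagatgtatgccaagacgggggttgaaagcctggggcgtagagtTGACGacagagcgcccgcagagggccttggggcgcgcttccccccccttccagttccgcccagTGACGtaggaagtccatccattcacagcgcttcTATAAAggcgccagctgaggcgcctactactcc
Fosb: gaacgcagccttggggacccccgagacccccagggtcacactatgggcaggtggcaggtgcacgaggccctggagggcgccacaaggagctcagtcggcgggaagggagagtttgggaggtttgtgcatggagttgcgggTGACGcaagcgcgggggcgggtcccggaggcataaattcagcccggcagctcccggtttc
Junb: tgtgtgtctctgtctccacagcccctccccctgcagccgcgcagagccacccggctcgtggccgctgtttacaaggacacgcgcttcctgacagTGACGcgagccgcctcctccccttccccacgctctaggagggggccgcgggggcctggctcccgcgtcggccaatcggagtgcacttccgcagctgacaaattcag
Jun: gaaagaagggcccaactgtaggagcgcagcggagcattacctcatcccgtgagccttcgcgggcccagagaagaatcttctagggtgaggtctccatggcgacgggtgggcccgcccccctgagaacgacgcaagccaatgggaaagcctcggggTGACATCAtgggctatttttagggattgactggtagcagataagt

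Motifs were searched on both strands. TGACG occurred in 4 of the 7 windows, those of Fos, Fosb, Junb and Atf3, against 15.7% of 32851 windows of that length in RefSeq. The Fos window holds it at 129 to 125 and at 66 to 62 bases before the start, with the TATA box motif, present in 9.96% of windows, at 33 to 28 bases. In Junb TGACG lies at 106 to 102 and in Fosb at 60 to 56 bases before the start. TGACNTCA, which overlaps TGACG where its open base is G, was found in the Jun window alone, against 6.62% of windows. The AP-1 site TGANTCA (5.48% of windows) and the CArG box of SRF (1.18%) were in none of the 7 windows. The Fosl2 and Jund windows held none of these motifs. Bases farther before the starts were not searched. The absence of a motif from a window therefore does not show that the promoter, such as that of Fos, lacks it. In GENCODE M21 the gene starts 671 bases before the RefSeq start for Fosl2, 1210 bases after it for Jund and 34706 bases before it for Atf3, so those windows, searched but not shown, describe 1 of several annotated starts.

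Values below are the deposited ones, log2(normalized reads + 1), unless a linear or per-length scale is named. The 4 libraries had 12609 to 12798 genes above 0, and a depth of roughly 6.22e+07 to 7.42e+07 reads was estimated from the spacing of low values. That spacing, the step in linear value from 1 read to the next, was 1.27 and 1.23 in the excitatory pair and 0.72 and 0.874 in the inhibitory pair. The lowest level, taken as 1 read, lay at 0.315 and 0.248 in the excitatory pair and 0.391 and 0.727 in the inhibitory pair. Linear values are therefore offset from a plain multiple of reads, which matters most for low values. The median difference of the 13619 tested genes, excitatory minus inhibitory, was 0.52 and became -0.01 after median-of-ratios scaling, called scaled below. The labels were checked on marker genes. Camk2a, the gene of αCaMKII, had 16.53 and 16.46 in the excitatory and 15.60 and 15.66 in the inhibitory libraries (difference 0.87, limma adjusted p = 3.18e-04, and 0.33 after scaling). Slc17a7, a vesicular glutamate transporter gene, had 12.19 and 12.06 against 11.99 and 11.67 and did not pass (adjusted p = 0.182). Of the genes of GABA synthesis, Gad1 had 10.91 and 11.17 against 11.45 and 11.59 (adjusted p = 0.0649, and 0.00768 after scaling), and Gad2 had 9.73 and 10.39 against 10.14 and 10.13 (adjusted p = 0.824). Lhx6, a transcription factor gene of GABAergic interneurons, had 11.95 and 11.29 in the excitatory libraries, against 4.69 and 7.53 in the inhibitory ones (difference 5.50, SE 0.99, adjusted p = 0.00658), the higher values being in the excitatory pair; it did not pass without excitatory replicate 1 (0.172) or 2 (0.148). Dlx2, another transcription factor gene of GABAergic neurons, went the other way. It had a listed 0 in both excitatory libraries, against 5.05 and 5.61 in the inhibitory pair (limma adjusted p = 3.90e-04). Those values of 0 gave the test no spread. Of 8 glutamatergic markers, 5 (62.5%) were higher in the excitatory libraries and 1 (12.5%) lower (4 and 2 after scaling). Of all tested genes 45.0% were higher and 26.8% lower (32.4% and 33.5% after scaling). The higher markers included Slc17a6, with 9.08 and 8.49 against a listed 0 in both inhibitory libraries. All 4 libraries list 0 for Slc32a1, which encodes vGAT, so excitatory and inhibitory are used here as labels alone.

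The AP-1 genes were split between the libraries. Of the 7 genes, all of which passed the filter on low values, 5 were lower in the excitatory libraries (Fos, Fosb, Jun, Junb and Atf3) and 2 were higher (Fosl2 and Jund), by limma's moderated test with Benjamini-Hochberg adjustment over all tested genes. The background was high: 71.8% of all tested genes passed, 26.8% lower and 45.0% higher in the excitatory libraries. After scaling, 65.9% passed, 33.5% lower and 32.4% higher, and the members counted 5 lower and 1 higher, since Jund no longer passed. The groups did not overlap for any of the 7 genes, as for 86.4% of tested genes (54.6% higher and 31.8% lower in the excitatory libraries). The members' median difference was -2.17, against 0.52 for all tested genes, and -2.70 against -0.01 after scaling. Fosl2 and Atf3 were listed at 0 in the libraries of 1 label, and those values give the test no spread. The same holds for each other tested gene named in this report with a listed 0 in both libraries of 1 label. Fos, Junb and Fosl2 also passed in both other scalings and without each library in turn, as did 30.9% of tested genes.

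**Figure D1:**
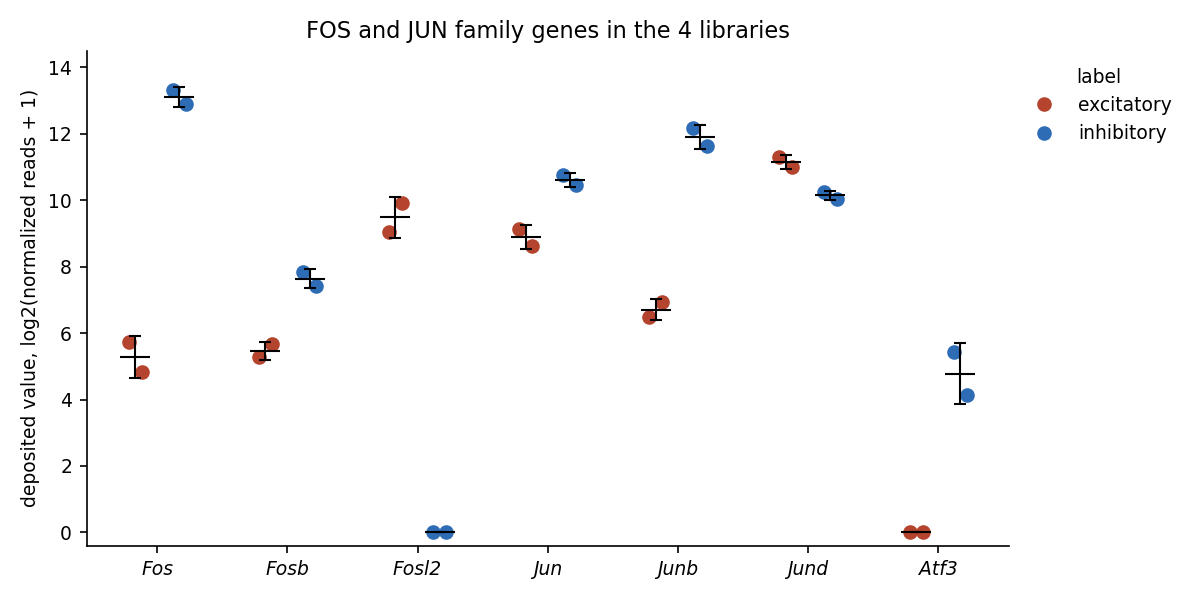
Deposited values of the 7 genes on the log2(normalized reads + 1) scale, 1 point per library, with the mean (bar) and SD (whiskers) of the 2 libraries of each label, excitatory left of inhibitory. Fos and Junb lie below 7 in both excitatory libraries and above 11 in both inhibitory ones, Fosl2 and Atf3 are at 0 in the libraries of 1 label, and Jund lies above 10 in all 4.

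Fos, the founding member of the FOS family and a widely used marker of recent neuronal activity, differed most among the members with values above 0 in all 4 libraries. It had 5.73 and 4.82 in the excitatory libraries, against 13.32 and 12.89 in the inhibitory libraries. Both excitatory libraries were far below both inhibitory ones, with replicate gaps of 0.91 (excitatory) and 0.43 (inhibitory). The difference was -7.83 (SE 0.39, limma adjusted p = 1.36e-04), a 228-fold lower level on this scale, and -8.36 after scaling (adjusted p = 1.55e-04). The lower values stood on about 41.7 and 23 reads in the excitatory libraries, against about 14200 and 8700 in the inhibitory libraries. A difference at least as large in size occurred in 10.5% of tested genes. Ranked per exon length among genes above 0, Fos stood at 9044 of 12260 and 9562 of 12284 in the excitatory libraries, against 714 of 12107 and 954 of 12132 in the inhibitory ones. Fos spans chr12:85473890-85477273 on the plus strand in GENCODE M21, on the same build as the windows.

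Fosb encodes a FOS protein whose shortened splice form is known to build up in neurons after repeated stimulation; the tables give 1 value per gene and do not part the forms. The gene spans chr7:19302696-19310051 on the minus strand. It had 5.28 and 5.66 in the excitatory libraries, against 7.84 and 7.43 in the inhibitory libraries. The groups stood apart by more than the replicate gaps of 0.38 and 0.42. The difference was -2.17 (SE 0.35, limma adjusted p = 0.00436), 4.49-fold lower, and -2.70 after scaling (adjusted p = 0.0031). The call was lost without any 1 library, with adjusted p of 0.0694 and 0.0574 on leaving out excitatory replicate 1 or 2, and of 0.0627 and 0.0502 on leaving out inhibitory replicate 1 or 2. Its share of the members' total per exon length was close in both labels, at 0.43% ± 0.13 (excitatory) and 0.478% ± 0.00071 (inhibitory; SD, n = 2 each).

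Fosl2, which encodes FRA-2, a FOS protein without the strong activation domain of FOS, had the opposite pattern. It spans chr5:32135801-32157842 on the plus strand. Its values were 9.04 and 9.93 in the excitatory pair, against a listed 0 in both inhibitory libraries. The excitatory values stood on about 414 and 791 reads. The gene passed limma's test (adjusted p = 1.18e-04, and 1.75e-04 after scaling), and no fold is given against libraries listed at 0. It passed the filter on low values through the excitatory libraries alone, and the inhibitory values of 0 gave the test no spread. A listed 0 in both inhibitory libraries beside at least 4 in both excitatory ones occurred in 6.26% of tested genes. The FOS family member Fosl1 was listed at 0 in all 4 libraries.

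**Figure D2:**
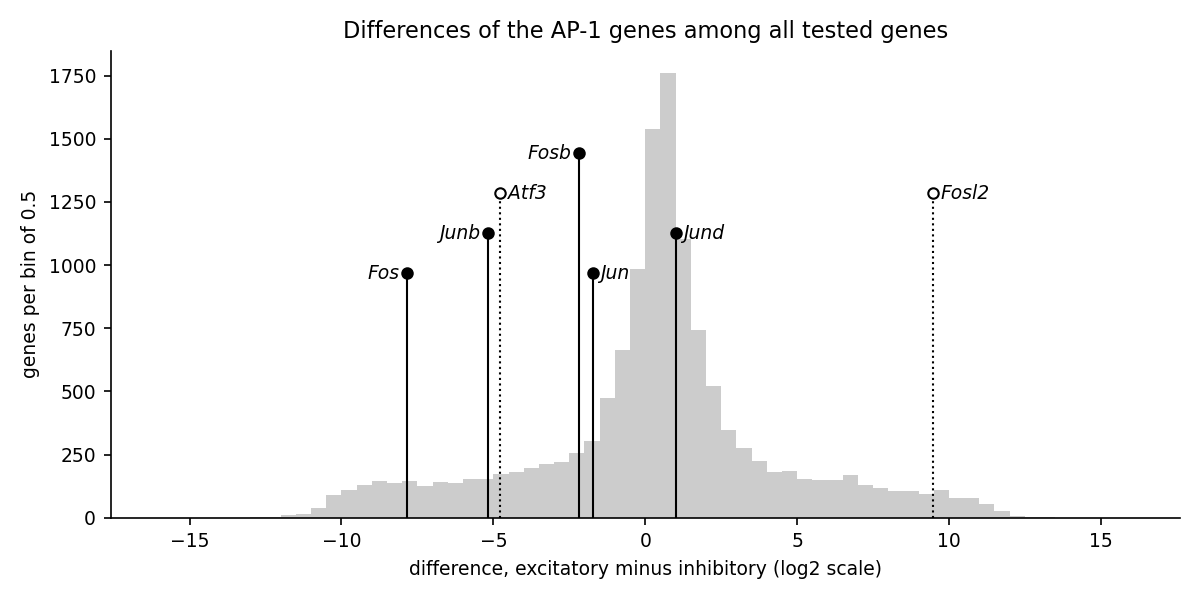
Differences between excitatory and inhibitory libraries on the log2 scale (x axis) for all 13619 tested genes, as grey bars of genes per bin, with the 7 AP-1 genes as lines whose height carries no value. Open circles with dotted lines mark Fosl2 and Atf3, which were listed at 0 in the libraries of 1 label; Fos, Junb, Fosb and Jun lie left of 0 and Jund lies within the central peak.

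Among the JUN genes, Junb differed most. Junb encodes a JUN protein that is itself induced early and can restrain JUN; it spans chr8:84974484-84978718 on the minus strand. It had 6.48 and 6.93 in the excitatory libraries, against 12.16 and 11.64 in the inhibitory libraries. Both excitatory libraries were low and both inhibitory libraries high, with replicate gaps of 0.45 and 0.52. The difference was -5.19 (SE 0.31, limma adjusted p = 2.05e-04), 36.6-fold lower, and -5.73 after scaling (adjusted p = 2.58e-04). About 70.2 and 98.8 reads lay behind the excitatory values, against about 6340 and 3640 behind the inhibitory ones. Junb shares 173 exonic bases, 7.52% of its exon length, with Prdx2 on the opposite strand, and the library kits are not described as marking strand, so reads there cannot be assigned to 1 gene. Prdx2, the gene of a peroxide-reducing enzyme, had 15.42 and 15.30 in the excitatory and 14.96 and 14.98 in the inhibitory libraries, so that its values were the higher ones in the excitatory pair.

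Jun (chr4:95049034-95052222, minus strand), whose protein JNK kinases phosphorylate, had 9.14 and 8.63 in the excitatory libraries, against 10.77 and 10.45 in the inhibitory libraries. Both excitatory libraries were below both inhibitory ones by more than the replicate gaps of 0.51 and 0.31. The difference was -1.73 (SE 0.28, limma adjusted p = 0.00442), 3.31-fold lower, and -2.27 after scaling (adjusted p = 0.00224). The call was lost without excitatory replicate 2 (adjusted p = 0.0626), inhibitory replicate 1 (0.0941) or inhibitory replicate 2 (0.0739). A difference at least as large in size was present in 48.3% of tested genes.

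Jund, which encodes the JUN protein known for steady expression in resting cells, was the most even of the 7; it spans chr8:70698949-70700616 on the plus strand. It had 11.29 and 10.99 in the excitatory libraries, against 10.24 and 10.05 in the inhibitory pair. Both excitatory values were the higher ones, with replicate gaps of 0.30 and 0.19. The difference of 1.0 (SE 0.20, limma adjusted p = 0.0103, 1.99-fold higher) did not pass after scaling (0.45, SE 0.20, adjusted p = 0.111). It also lost its call without excitatory replicate 1 (0.0747), excitatory replicate 2 (0.0534), inhibitory replicate 1 (0.0794) or inhibitory replicate 2 (0.0992). Relative to the median of all tested genes the difference was 0.48, and 63.8% of tested genes differed at least as much in size as Jund did.

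Atf3 (chr1:191170296-191218039, minus strand) encodes a stress-induced partner of JUN proteins and is known to rise in injured neurons. It had a listed 0 in both excitatory libraries, against 5.44 and 4.13 in the inhibitory pair. The inhibitory values stood on about 59.3 and 19 reads and were 1.31 apart, the widest replicate gap among the 7 genes. The gene passed limma's test (adjusted p = 0.00156, and 0.00194 after scaling) but not without excitatory replicate 1 (0.0753) or excitatory replicate 2 (0.075). Atf3 passed the filter on low values through the inhibitory libraries alone, and the excitatory values of 0 gave the test no spread. A listed 0 in both excitatory libraries beside at least 4 in both inhibitory ones occurred in 6.23% of tested genes.

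**Figure D3:**
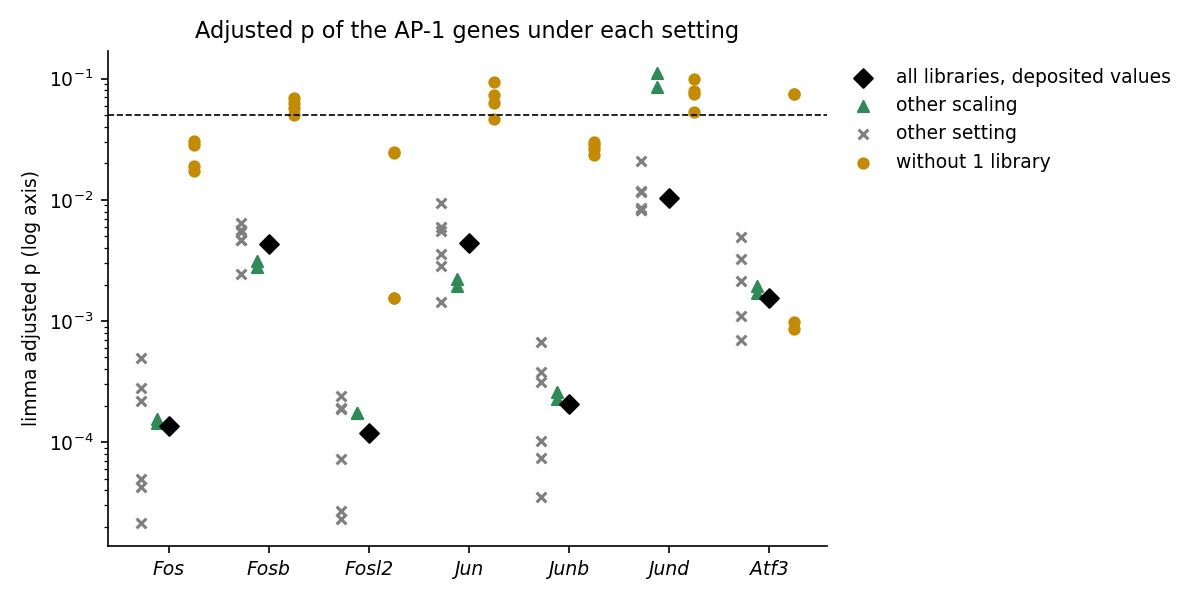
Limma adjusted p (log axis) of each AP-1 gene with all libraries and the deposited values (diamonds), in 2 other scalings (triangles), under other settings of filter, pseudocount, trend or replicate block (crosses) and without 1 library at a time (circles). The dashed line is the threshold of 0.05; Fos, Fosl2 and Junb lie below it in each setting shown, and Fosb, Jun, Jund and Atf3 cross it.

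The mix of AP-1 transcripts within a library differed between the labels. It does not depend on the scaling between libraries if each library was scaled by 1 factor, which the labels do not state. Values were taken to the linear scale, divided by exon length and set against the sum over the 7 genes. Jund made up 83.5% and 80.4% of that sum in the excitatory libraries, against 9.46% and 11.1% in the inhibitory libraries. Fos made up 1.23% and 0.766% in the excitatory libraries, against 56.8% and 56.5% in the inhibitory ones, and Junb 2.13% and 3.46% against 25.9% and 24.2%. In sum the FOS family genes held 6.25% ± 2.4 in the excitatory libraries and 57.1% ± 0.28 in the inhibitory ones, and the JUN family genes 93.8% ± 2.3 and 42.7% ± 0.28 (SD, n = 2 each). Without division by length, which weighs the long Fosl2 more, the FOS family genes held 22.8% (excitatory) and 58% (inhibitory). Jun stayed near the same share in both labels, at 9.78% and 8.17% (excitatory) and 7.12% and 7.67% (inhibitory). These shares are a description, since an exact permutation test of 2 libraries against 2 cannot go below a two-sided p of 0.333.

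**Figure D4:**
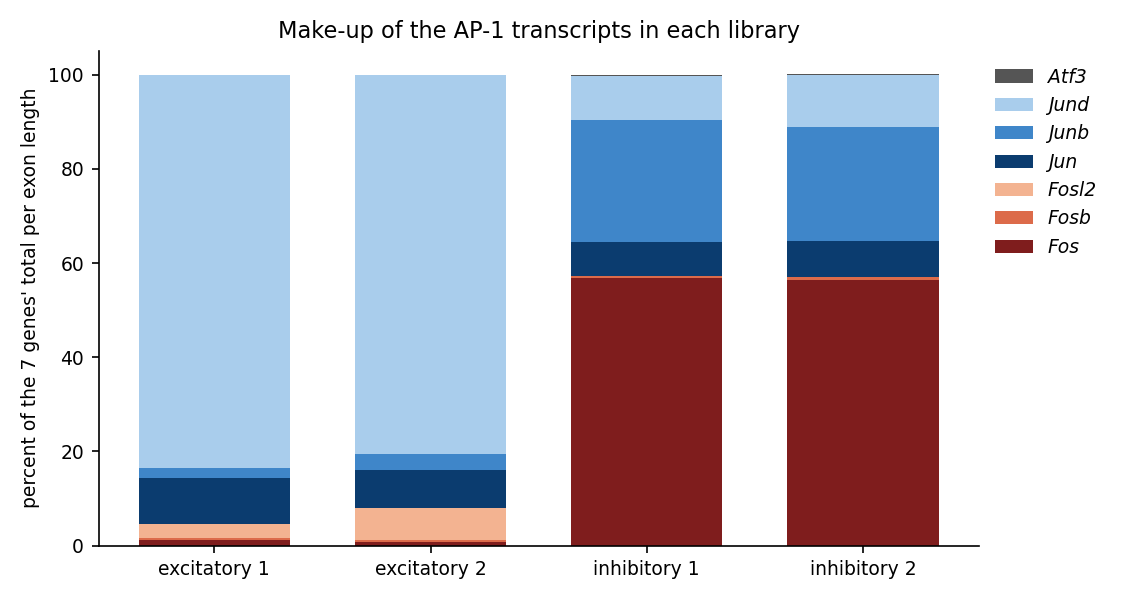
Make-up of the AP-1 transcripts in each library, as each gene's percent of the 7 genes' summed linear value per exon length. Jund fills over 80% of both excitatory bars, and Fos with Junb fills over 80% of both inhibitory bars.

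The order of the members per exon length differed as well. In the excitatory libraries it ran Jund, Jun, Fosl2, Junb, Fos and Fosb, with Atf3 listed at 0. The means per kilobase on the linear scale were 1360 ± 200 for Jund, 150 ± 37 for Jun, 77.4 ± 33 for Fosl2, 45.4 ± 10 for Junb, 16.9 ± 7.4 for Fos and 6.99 ± 1.3 for Fosb (SD, n = 2). Fosl2 and Junb, neighbours in that order, differed by less than the sum of their SDs. In the inhibitory libraries the order ran Fos, Junb, Jund, Jun, Fosb and Atf3, with Fosl2 listed at 0, and each step was larger than the sum of the neighbours' SDs. There the means were 3790 ± 790 for Fos, 1680 ± 420 for Junb, 680 ± 64 for Jund, 493 ± 76 for Jun, 32 ± 6.5 for Fosb and 13.7 ± 8.5 for Atf3. Both orders depend on the length used. Without length, Fosl2 had 525.4 and 973.8 in the excitatory libraries, against 561.6 and 394.9 for Jun. In the inhibitory libraries Jun then had 1742 and 1401, above the 1210 and 1059 of Jund.

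Ratios between members within a library likewise do not depend on the scaling between libraries if each library was scaled by 1 factor. On the log2 scale per exon length, Fos stood at -2.99 and -3.41 relative to Jun in the excitatory libraries, against 2.99 and 2.88 in the inhibitory ones. Junb relative to Jund was -5.29 and -4.54 in the excitatory libraries, against 1.45 and 1.12 in the inhibitory ones. Fos relative to Fosb was 1.87 and 0.55 in the excitatory libraries, against 6.89 and 6.88 in the inhibitory ones. In excitatory replicate 2 the order of Fos and Fosb depends on the length used. Per longest transcript, Fos had 12.96 and Fosb 13.08 there on the linear scale, and without length they had 27.32 and 49.46.

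Genes whose 4 deposited values lay nearest to those of Fos, by Euclidean distance over the 4 libraries, were Unc93b1 (distance 0.96), Tcn2 (1.0), St7l (1.10) and Tmpo (1.15). The nearest member to Fos was Junb, at 2.81. Nearest to Jun were Mfap3 (0.25), Xrcc3 (0.31), Pik3ca (0.32) and Nupr1 (0.35). With 4 libraries in 2 groups, such closeness says little beyond a shared level in each label.

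The related lists are read against the shares of all tested genes given above, 45.0% higher and 26.8% lower in the excitatory libraries, and 32.4% and 33.5% after scaling. Of the transcription factors and coactivators that act at the Fos promoter, 17 of 18 listed were tested, and 11 (64.7%) were higher and 3 (17.6%) lower in the excitatory libraries. After scaling 9 (52.9%) were higher and 4 (23.5%) lower, and the median difference was 1.19 before and 0.65 after scaling, against 0.52 and -0.01 for all tested genes. Srf, the gene of the serum response factor, had 9.58 and 9.37 in the excitatory libraries, against 6.20 and 5.66 in the inhibitory libraries (difference 3.55, SE 0.32, limma adjusted p = 6.81e-04). Mkl1, the gene of an SRF coactivator, had 11.12 and 11.33 against 7.60 and 7.27, and Crtc1, the gene of a CREB coactivator, 12.38 and 12.30 against 10.85 and 10.62. Crem, a CREB family gene with both activating forms and the repressor ICER, went the other way, with 8.29 and 7.72 in the excitatory libraries, against 14.77 and 15.21 in the inhibitory ones (difference -6.98, SE 0.28, limma adjusted p = 9.49e-05, 127-fold lower). Srf, Mkl1, Crtc1 and Crem kept their direction and passed after scaling.

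Of the kinases that act on AP-1 proteins or their inducers, 13 of 14 listed were tested, and 6 (46.2%) were higher and 4 (30.8%) lower in the excitatory libraries, shares near those of all tested genes (5 and 5 after scaling; median difference 0.97). The genes of the JNK kinases, which phosphorylate JUN, went in both directions. Mapk8, the gene of JNK1, had 9.63 and 9.26 in the excitatory libraries, against 0.47 and 0 in the inhibitory ones (limma adjusted p = 9.82e-05). Mapk9, the gene of JNK2, had 12.78 and 12.87 against 7.75 and 7.71 (9.49e-05). Mapk10, the gene of JNK3, was lower, with 9.75 and 9.33 in the excitatory libraries, against 11.10 and 11.19 in the inhibitory pair (difference -1.61, SE 0.23, limma adjusted p = 0.00284), but it did not pass without inhibitory replicate 1 (0.0702) or 2 (0.0738). Mapk7, the gene of ERK5, had a listed 0 in both excitatory libraries, against 9.89 and 9.45 in the inhibitory pair, and Mapk14, the gene of a p38 kinase, had 5.70 and 6.11 against 10.50 and 10.25. Mapk7 and Mapk14 were lower, with limma adjusted p of 9.49e-05 and 2.63e-04. The excitatory values of 0 for Mapk7 gave the test no spread.

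Of the genes that act on the decay of AP-1 mRNA or protein, 10 of 11 listed were tested. In the excitatory libraries 7 (70%) were higher and 2 (20%) lower (5 and 2 after scaling), and the median difference was 0.93 before scaling. The list does not part genes that speed decay from genes that slow it. Zfp36 encodes a protein that binds AU-rich elements such as those in Fos mRNA and speeds its decay. Zfp36 had a listed 0 in both excitatory libraries, against 10.60 and 10.23 in the inhibitory pair. Rfwd2, the gene of the ubiquitin ligase COP1 that targets JUN, had 12.59 and 12.41 in the excitatory libraries, against 2.98 and 2.38 in the inhibitory ones. Itch, the gene of another ligase for JUN proteins, had 2.39 and 1.32 against 11.32 and 11.13. Zfp36, Rfwd2 and Itch all passed, the highest of their limma adjusted p values being 1.31e-04. The excitatory values of 0 for Zfp36 gave the test no spread. The part of these genes in the AP-1 differences was not tested.

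Other partners of the AP-1 proteins counted 4 higher (33.3%) and 3 lower (25%) in the excitatory libraries of 12 tested of 16 listed (4 and 4 after scaling; median difference 0.33). Atf2, the gene of a JUN partner, had 10.54 and 11.27 in the excitatory libraries, against 14.45 and 14.88 in the inhibitory ones (difference -3.76, SE 0.30, limma adjusted p = 4.82e-04), but it did not pass without inhibitory replicate 2 (0.051). Atf4, the gene of the integrated stress response factor, had 13.53 and 13.29 against 10.88 and 11.13 and was higher (limma adjusted p = 3.20e-04). Ddit3, the gene of CHOP, had 13.75 and 13.88 against 12.27 and 12.18, and it was higher as well (3.88e-04).

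Of the genes with a described AP-1 site, 7 of 10 listed were tested, and 3 (42.9%) were higher and 1 (14.3%) was lower in the excitatory libraries, the same counts after scaling (median difference 2.59). The share that was higher is near that of all tested genes before scaling. Pdyn, the prodynorphin gene, had 11.32 and 11.91 in the excitatory libraries, against 7.05 and 6.89 in the inhibitory ones (difference 4.64, SE 0.29, limma adjusted p = 2.37e-04, 25-fold higher). Nptx2, the gene of a synaptic pentraxin, had 9.29 and 9.67 against a listed 0 in both inhibitory libraries, and Hmox1, the gene of heme oxygenase, had 10.21 and 9.81 against 1.50 and 0. Cd44, a gene of an adhesion receptor of glia and leukocytes, was lower, with 7.04 and 6.88 in the excitatory libraries, against 10.08 and 10.52 in the inhibitory ones (adjusted p = 5.20e-04).

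**Figure D5:**
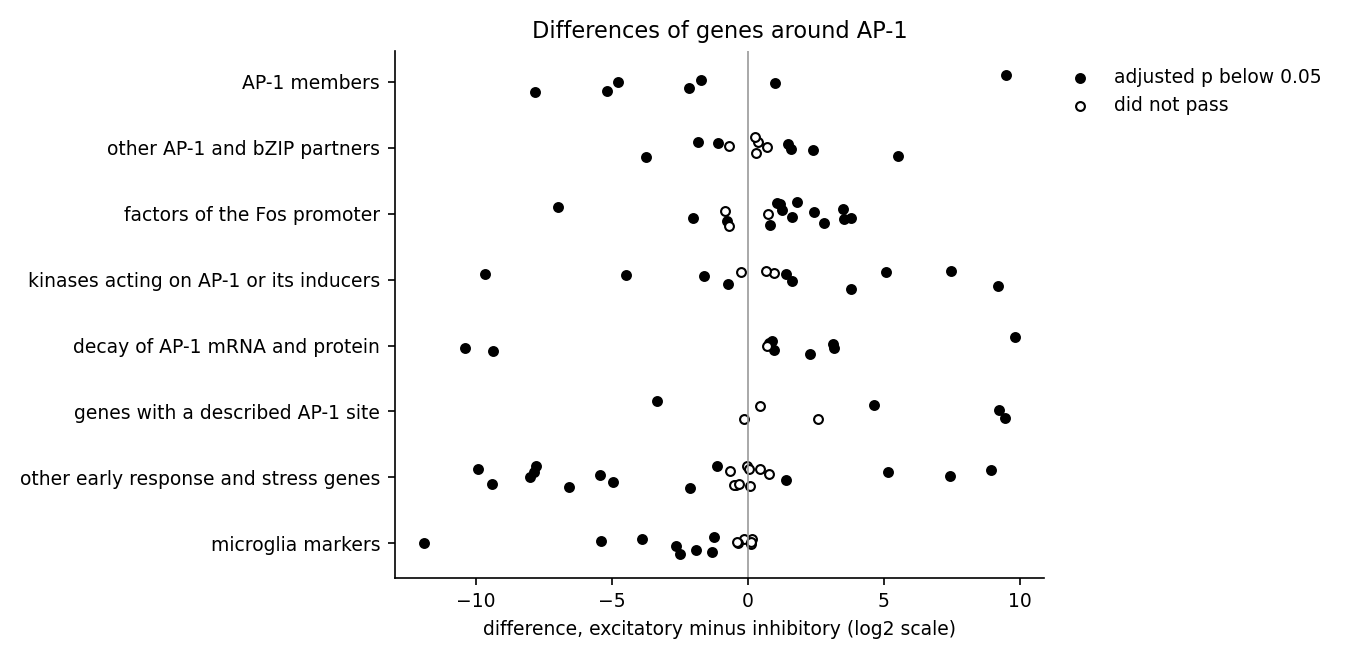
Difference between excitatory and inhibitory libraries on the log2 scale (x axis) for each tested gene of the AP-1 family, of 6 related lists and of the microglia markers (rows); filled points passed limma's test at an adjusted p of 0.05 and open points did not. The microglia row has filled points on the lower side alone, while the rows of related lists have them on both sides; vertical scatter within a row carries no value.

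Other early response and cell stress genes were more often lower than higher in the excitatory libraries. Of 23 tested of 27 listed, 10 (43.5%) were lower and 4 (17.4%) were higher (14 and 4 after scaling; median difference -0.53). Dusp1, a phosphatase gene of the early response, had 1.40 and 0.34 in the excitatory libraries, against 11.05 and 10.56 in the inhibitory ones. Hspa1a, the gene of an inducible heat shock protein, had 1.98 and 1.90 against 9.97 and 9.52, and Cyr61, a matrix protein gene, had a listed 0 in both excitatory libraries, against 9.38 and 9.47 in the inhibitory pair. The other heat shock genes of the list were split. Hspa1b was lower, with 2.71 and 0.35 in the excitatory libraries, against 9.46 and 9.35 in the inhibitory ones (limma adjusted p = 0.0012). Hsph1 had 9.26 and 9.23 against 9.78 and 9.36 and did not pass (limma adjusted p = 0.289). Dnajb1, a co-chaperone gene, was higher, with 8.60 and 9.17 in the excitatory libraries, against 2.09 and 0.79 in the inhibitory ones (limma adjusted p = 4.23e-04). Hspb1, a small heat shock protein gene, was higher too, with 5.46 and 4.88 against a listed 0 in both inhibitory libraries (limma adjusted p = 4.33e-04). Nr4a1, an activity-induced nuclear receptor gene, also went the other way, with 9.19 and 8.73 in the excitatory libraries and a listed 0 in both inhibitory ones. Dusp1, Hspa1a, Cyr61 and Nr4a1 all passed, the highest of their limma adjusted p values being 1.33e-04. For Cyr61, Nr4a1 and Hspb1 the values of 0 in 1 label gave the test no spread. The part of the stress genes in the AP-1 differences was not tested.

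Markers of other cell types differed in part as well. Their counts are read against all tested genes, of which 45.0% were higher and 26.8% lower in the excitatory libraries (32.4% and 33.5% after scaling). Of 14 tested microglia markers 8 (57.1%) were lower in the excitatory libraries and 0 higher (11 and 0 after scaling), and their summed level was 941 and 1029 CPM, taken on the linear total of a library, in the excitatory libraries, against 3489 and 2924 in the inhibitory libraries. Without Ctss, the most abundant, the sums were 671.6 and 747.8 against 2480 and 2010. Ptprc, the leukocyte gene of CD45, had a listed 0 in both excitatory libraries, against 12.01 and 11.80 in the inhibitory pair, and Aif1 had 7.49 and 7.43 against 11.29 and 11.40, while Tyrobp, another microglia gene, had 12.90 and 13.10 against 12.92 and 12.83. Astrocyte markers counted 6 higher (75%) and 0 lower of 8 in the excitatory libraries. After scaling they counted 3 higher (37.5%) and 2 lower (25%). Their sums were 25780 and 26320 against 23720 and 21930 CPM. Oligodendrocyte markers counted 4 higher and 0 lower of 7 (4 and 2 after scaling), with sums of 37070 and 37640 against 51280 and 50400. Most of these sums is Mbp, whose value was 21.33 in all 4 libraries, the highest of each table, and without it they were 4169 and 3600 CPM in the excitatory libraries, against 1907 and 1863 in the inhibitory ones. Of 10 endothelial and mural markers 5 were listed at 0 in all libraries, Cldn5, Tek, Kdr, Ly6c1 and Vtn, and of the 4 tested 3 were higher and 0 lower (likewise after scaling), with sums of 14.43 and 16.4 against 0.19 and 0.348. Glutamatergic markers counted 5 higher and 1 lower of 8 (4 and 2 after scaling), with sums of 1441 and 1414 against 1142 and 1166, and GABAergic markers 1 and 1 of 5 tested of 8 (1 and 2 after scaling), with sums of 84 and 79.5 against 74.5 and 82.3, which without Gad1, the most abundant, were 60 and 49.8 against 22.3 and 25.6. The 7 AP-1 genes together had 47.1 and 46.5 CPM in the excitatory libraries, against 337.4 and 247.1 in the inhibitory libraries. Without Fos, the member of highest mean CPM, the sums were 46.41 and 46.11 against 145.8 and 107.3. In such pools a lower share of cells of 1 type and less RNA per cell cannot be told apart, and the part of the microglia markers in the AP-1 differences was not tested.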

How the data were processed

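Hand-picked fluorescent brain cells went through the SMART-seq v4 and Nextera XT kits, per the labels' protocols. The authors deposited 1 log2 value per gene and library. The submitters' processing notes name TopHat, edgeR and mm10, without versions or roles. No header or label gives the scale. Low values lie in even steps once un-logged, so they were read as log2(normalized reads + 1), with a pseudocount of 1. Reads were estimated from the lowest level and the step, and depth from the step. Being estimates, they carry no counting interval.

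The members and gene lists were chosen with earlier results of these data known. Genes with values of 1 or more in at least 2 libraries (13619) were tested in limma 3.58.1 (R 4.3.3) with a mean-variance trend, taking Benjamini-Hochberg adjusted p under 0.05 as called; the test was tried on simulated data first. The fit has 2 residual degrees of freedom. GENCODE M21 gave exon lengths for 23376 genes (95.7%), and RefSeq gave promoters for all 7 members. Genes named are the members, label checks, up to 4 genes per related list by smallest p past the threshold, markers by level and p, and the 4 genes nearest to Fos and to Jun, of which some are left out. Prdx2, Fosl1, Mapk10, Dnajb1, Hspb1, Hspa1b and Hsph1 were added after their values were seen. Alternatives were 2 scalings, 2 pseudocounts, 2 filters, no trend, a replicate block, each library left out, and 2 other lengths.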

Additional observations from a re-analysis of the deposited data

How the results depend on the processing

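Over 83 recomputed results for the 7 genes, 68 kept their direction and their side of the threshold, 15 kept the direction but no longer passed and 0 reversed. Fos, Junb and Fosl2 passed under all 12 alternatives. Fosl2 and Atf3, listed at 0 in the libraries of 1 label, could not reverse under any alternative. With an excitatory library left out, the spread of Fosl2 itself rested on the inhibitory pair listed at 0, which does not vary. Median-of-ratios and upper-quartile scaling gave Jund differences of 0.45 and 0.47 that did not pass, leaving 1 AP-1 gene higher in the excitatory libraries in each. When each library was left out in turn, 6103 to 6551 genes passed in all, 3530 to 4241 higher and 2310 to 2627 lower in the excitatory libraries, and 1 AP-1 gene was higher and 2 to 3 were lower. The differences then ranged from -2.38 to -1.96 for Fosb, from -1.98 to -1.47 for Jun and from 0.85 to 1.15 for Jund, and the adjusted p of Atf3 from 8.64e-04 to 0.0753; the lone library of a label was assumed to vary like the pair of the other. With the longest transcript as length, the FOS family held 8.62% (excitatory) and 56.2% (inhibitory) and the JUN family 91.4% and 43.5%; with no length the FOS family held 22.8% and 58%, and the JUN family 77.2% and 41.9%. Libraries with the same number showed no shared deviation (correlation -0.00193 across genes), which cannot show whether they share an animal or a batch. With the replicate block 9782 genes passed against 9777, with no call of an AP-1 gene changed. A filter of at least 5 in at least 2 libraries left Atf3 untested. Depth limits the low values of Fos, Fosb, Junb and Atf3, which rest on fewer than 100 estimated reads.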
